A study of Homo sapiens with 15 samples.

Results

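The mitosis genes are 38 genes whose products carry a cell from the end of G2 through mitosis and out of it: mitotic cyclins and kinases, the spindle checkpoint, centromere proteins, kinesins and spindle proteins, and factors of chromosome structure, anaphase and exit. They were found by symbol in a deposited table of TPM, a measure of transcript abundance that corrects for transcript length and sums to the same total in each library, that held 56624 symbols. Of the 38 symbols, 37 stood on 1 row each, were above 0 in every library and passed the filter on low values, and only those 37 were tested. CDCA3, which encodes a protein that promotes entry into mitosis, stood on 2 rows listed at 0 in all 15 libraries. So did its neighbours in the genome TPI1, a glycolysis enzyme that every cell uses, USP5, GNB3 and SPSB2, and CDCA3 is therefore treated as not measured.

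The RNA came from TF-1, a human erythroleukaemia line that grows in response to cytokines. Poly(A) RNA was sequenced from 3 libraries each of Parental TF-1 cells and of 4 lines carrying a base-edited mutation of isocitrate dehydrogenase, named IDH1R132H, IDH2R140Q, IDH2R140W and IDH2R172K after the edited gene and residue. Parental cells were grown with 2 ng/ml of the cytokine GM-CSF and the edited lines without it, so a difference from Parental holds both editing and medium, which cannot be told apart. All 4 edited lines grew in 1 medium. Whether a line is a single clone, and whether its libraries came from separate cultures, is not given in the sources used here, so the p-values speak only of how much libraries of a group vary, which may be technical.

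Mitosis is driven by CDK1 bound to the B-type cyclins, and cells switch its genes on together late in each cycle. In quiescent and G1 cells the DREAM complex holds these promoters off through a DNA element called the cell cycle homology region, while in G2 the MuvB core joins MYBL2 and FOXM1 to switch them on. Aurora and Polo-like kinases then build the spindle, and the checkpoint proteins hold the anaphase-promoting complex in check until every kinetochore is attached. Once CDC20 activates that complex, securin and the cyclins are destroyed, separase opens cohesin and the cell divides. Since these transcripts are largely absent from resting cells, their summed level in a culture is often read as a measure of cycling cells.

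The promoters of the mitosis genes are shown first. The cell cycle homology region and CCAAT boxes are textbook features of mitotic promoters, so high shares describe the set and are no result of these data. RefSeq promoters (GRCh38.p14, 250 bases before to 50 after the start) were found for 32 of the 38 symbols, 41 promoters in all, and none was found for AURKA, UBE2C, BIRC5, FOXM1, BUB3 and TTK. The letters TTTGAA, the common form of the cell cycle homology region, were sought on both strands, as were the letters CCAAT, the box bound by NF-Y. TTTGAA stood in 58.5% of the 41 promoters (95% exact Clopper-Pearson interval 42.1% to 73.7%), against 15.2% of all 35116 promoters and 10.4% of the 13571 promoters of the other genes tested. CCAAT stood in 82.9% of the 41 (67.9% to 92.8%), against 34.6% of all promoters and 34.5% of those of the other genes tested. Promoters of 1 gene can overlap, as those of CDK1 do, so the intervals count some sequence more than once. A match is a description of the letters and no measure of binding.
Each sequence runs 5′ to 3′ in the gene's direction from 150 bases before the start to 20 after it, with TTTGAA and CCAAT matches on either strand in capitals. CCNB2 shows 3 CCAAT boxes before 1 TTTGAA and PLK1 shows 1 of each. MKI67 holds 2 TTTGAA and the CDK1 promoter shown holds 3. The other CDK1 promoter and both PTTG1 promoters, not printed, hold 0 TTTGAA in the same window around their own starts. KIF2C has neither set of letters in its printed window. The 5 windows are chr15:59104996-59105165 (plus strand), chr16:23678739-23678908 (plus), chr10:128126404-128126573 (minus), chr10:60778328-60778497 (plus) and chr1:44739687-44739856 (plus), in the order printed.
CCNB2: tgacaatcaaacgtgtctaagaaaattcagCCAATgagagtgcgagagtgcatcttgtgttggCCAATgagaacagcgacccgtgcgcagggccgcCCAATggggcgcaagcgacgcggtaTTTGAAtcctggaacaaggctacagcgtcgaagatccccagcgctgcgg
PLK1: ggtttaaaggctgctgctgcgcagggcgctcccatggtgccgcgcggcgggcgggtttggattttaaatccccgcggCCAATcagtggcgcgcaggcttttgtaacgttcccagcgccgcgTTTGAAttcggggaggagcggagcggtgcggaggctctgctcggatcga
MKI67: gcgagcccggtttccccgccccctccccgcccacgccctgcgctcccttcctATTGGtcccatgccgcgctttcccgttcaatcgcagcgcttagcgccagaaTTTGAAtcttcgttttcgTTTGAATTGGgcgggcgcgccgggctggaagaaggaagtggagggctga
CDK1: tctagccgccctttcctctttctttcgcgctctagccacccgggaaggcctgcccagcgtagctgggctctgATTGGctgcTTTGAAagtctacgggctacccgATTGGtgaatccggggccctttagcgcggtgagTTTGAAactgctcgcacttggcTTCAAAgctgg
KIF2C: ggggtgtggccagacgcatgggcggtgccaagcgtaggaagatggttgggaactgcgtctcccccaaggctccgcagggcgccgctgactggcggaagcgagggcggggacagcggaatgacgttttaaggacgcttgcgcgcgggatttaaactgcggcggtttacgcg
In MKI67 the second TTTGAA runs into a CCAAT read on the opposite strand, so the capitals join there.

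Of 10 TF-1 markers 7 were above 1 TPM in every group, including CD34 and CD33, while GATA1, CSF2RA and IL3RA were, like CDCA3, symbols on more than 1 row listed at 0. Fibroblast and epithelial markers each summed to at most 2.10 TPM in a library. Of 5 T cell markers only CD3D exceeded 1 TPM, and the list summed to between 60.2 and 82.9 TPM in Parental, 28.9 and 36.0 in IDH1R132H, 0.45 and 3.28 in IDH2R140Q, 7.42 and 10.9 in IDH2R140W and 49.5 and 57.5 in IDH2R172K, with CD3E, CD3G, CD2 and CD5 at or under 0.82 TPM in every library. The part of these levels in the results was not tested. Of 5 B cell markers MS4A1 was at 0 throughout, and the list summed to at most 8.61 TPM. CD79A of that list and CLDN4 of the epithelial list were, like CDCA3, symbols on 2 rows listed at 0. The share of TPM in ribosomal protein genes was 13.7% to 18.4% in 13 libraries, while Parental replicate 2 reached 21.0% and IDH2R140W replicate 3 reached 21.9%. Several results that rest on these 2 libraries are given with and without them.

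Differences are edited line minus Parental on the log2(TPM + 1) scale, ± SE, and a gene rose or fell where its Benjamini-Hochberg adjusted p over all 14881 genes tested was under 0.05. The median gene itself was shifted upwards, with values of 0.16 for IDH1R132H, 0.23 for IDH2R140Q, 0.03 for IDH2R140W and 0.13 for IDH2R172K. Median-ratio scaling, which sets these medians to about 0, was therefore run beside the deposited scale. In a culture, fewer cells in mitosis and less RNA per such cell cannot be told apart.

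IDH2R140W had the lowest mitosis gene transcripts of the 5 groups. Its 3 libraries held 3823 to 3961 TPM over the 37 genes, below the 4456 to 4551 of Parental, the 4472 to 4687 of IDH2R140Q, the 4949 to 5043 of IDH1R132H and the 4966 to 4974 of IDH2R172K. Its group mean was the lowest for 23 of the 37 genes and the highest for none. The highest mean stood in IDH1R132H for 11 genes, in IDH2R172K for 11, in Parental for 9 and in IDH2R140Q for 6. After median-ratio scaling the mean log2 level over the 37 genes ran from 6.06 to 6.11 in the IDH2R140W libraries and from 6.31 to 6.38 in Parental, and that of IDH2R140Q, 6.08 to 6.16, was then about as low.

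Against Parental, 12 of the 37 genes fell in IDH2R140W and none rose, where 10.7% of all genes tested fell and 13.3% rose. In IDH2R140Q 9 fell (24.3% of the 37, against 11.1% of all genes) and 8 rose (21.6%, against 33.3%). In IDH1R132H 6 fell, 16.2% against 13.7%, and 9 rose, 24.3% against 30.1%, shares that lay near those of all genes. In IDH2R172K 3 fell, 8.11% against 13.5%, and 11 rose, 29.7% against 25.5%. Some of the genes rose and others fell in each line except IDH2R140W. The median of the 37 genes, relative to all genes tested, was −0.12 for IDH1R132H, −0.22 for IDH2R140Q, −0.24 for IDH2R140W and −0.02 for IDH2R172K.

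The split moved with scaling. After median-ratio scaling 7 rose and 12 fell in IDH1R132H, where 22.1% and 21.2% of all genes rose and fell under that scaling. The counts were 3 and 16 in IDH2R140Q (all genes 19.9% and 20.4%), 0 and 17 in IDH2R140W (12.8% and 13.1%) and 6 and 8 in IDH2R172K (19.1% and 19.6%). Calls that passed on the deposited scale and also under median-ratio scaling, quantile normalisation and rescaling without ribosomal protein, globin and mitochondrial genes were fewer. In IDH1R132H 7 rose and 6 fell by this rule, where 20.5% and 13.2% of all genes did. In IDH2R140Q 3 rose and 9 fell, beside 17.7% and 10.5% of all genes. In IDH2R140W none rose and 11 fell, beside 11.2% and 9.78%, and in IDH2R172K 6 rose and 3 fell, beside 17.9% and 13.1%. Without Parental replicate 2 and IDH2R140W replicate 3 together, 9 rose and 9 fell in IDH1R132H, where 30.6% and 16.3% of all genes did so in that fit. The counts were 9 and 12 in IDH2R140Q (all genes 33.4% and 13.2%), 0 and 18 in IDH2R140W (16.8% and 12.5%) and 12 and 5 in IDH2R172K (26.6% and 16.7%). When only Parental and IDH2R140W were fitted, 2 of the 12 falls in IDH2R140W passed, those of CCNB1 and NEK2, so the other 10 rest on a spread shared with the other lines.

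**Figure D1:**
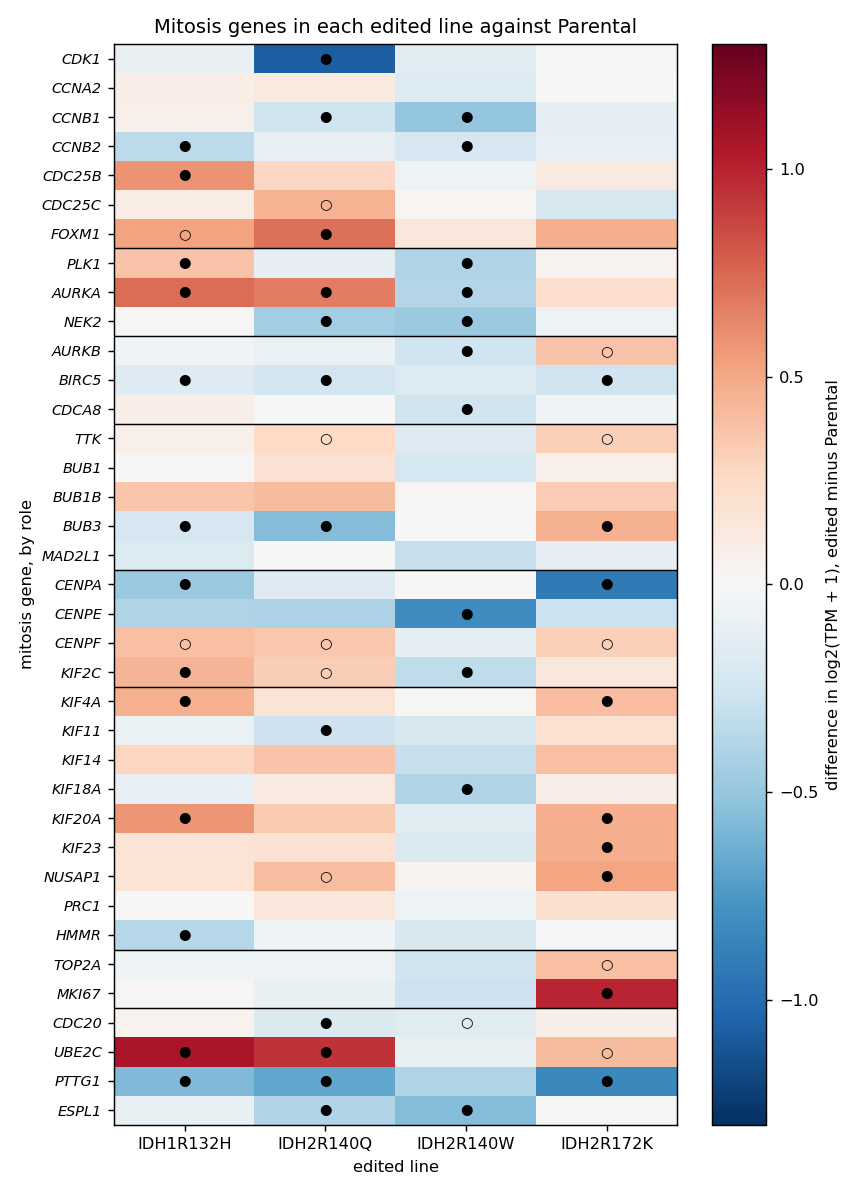
Difference in log2(TPM + 1) of the 37 measured mitosis genes (rows, grouped by role with black lines) in each edited line against Parental (columns), in colour. Filled circles mark genes that passed on the deposited scale and under all 3 other scalings, open circles those that passed on the deposited scale but not under all 3, and the IDH2R140W column holds 12 marks, all on falls.

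Entry into mitosis depends on CDK1, the kinase that starts mitosis, and in these lines its transcript was lower in 1 line. CDK1 stood at 112, 119 and 108 TPM in Parental and at 53.3, 50.1 and 56.5 in IDH2R140Q, with no overlap (−1.07 ± 0.0802, adjusted p = 1.95e-07). The other lines overlapped Parental or lay just under it, at 97.6, 118 and 102 in IDH1R132H, 94.7, 105 and 108 in IDH2R140W and 109, 114 and 112 in IDH2R172K. CDK1 was 1.06 lower in IDH2R140Q than in IDH2R172K on the log2(TPM + 1) scale and was 0.97 higher in IDH1R132H than in IDH2R140Q, and all 3 of these differences passed under every alternative run.

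The B-type cyclins, which bind CDK1, fell in 1 or more lines each. CCNB1, cyclin B1, fell in IDH2R140W from 329, 368 and 346 to 254, 233 and 249 TPM (−0.50 ± 0.0516, adjusted p = 8.03e-06) and in IDH2R140Q to 287, 291 and 292 (−0.26 ± 0.0516, adjusted p = 0.00112). The order of CCNB1 was thus IDH2R140W lowest, then IDH2R140Q, and the libraries of these 2 lines did not overlap each other or any other group. CCNB2, cyclin B2, fell in IDH1R132H (−0.34 ± 0.0553, adjusted p = 0.000193) and in IDH2R140W (−0.21 ± 0.0553, adjusted p = 0.0115). CCNA2, cyclin A2, which acts in S phase and G2, did not pass against Parental and ranged from 62.7 ± 2.73 TPM (mean ± SD, n = 3 libraries) in IDH2R140W to 77.6 ± 4.83 in IDH2R140Q. After median-ratio scaling its IDH2R140W difference passed at −0.23 (adjusted p = 0.031).

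The phosphatases and the transcription factor of the entry group were higher where they passed. CDC25B, a phosphatase that activates CDK1, rose in IDH1R132H to 72.3, 73.4 and 74.2 TPM from 55.4, 38.7 and 53.5 (0.58 ± 0.123, adjusted p = 0.00165). CDC25C, a related phosphatase and one of the lowest genes here, rose in IDH2R140Q to 13.6, 10.8 and 12.4 from 7.13, 9.75 and 9.22 (0.45 ± 0.125, adjusted p = 0.00965), a call that median-ratio scaling ended (0.21, adjusted p = 0.234). FOXM1, which switches on many of the other mitosis genes, stood at 66.9, 37.0 and 59.5 in Parental, 81.6, 74.4 and 73.7 in IDH1R132H, 93.0, 83.7 and 86.1 in IDH2R140Q, 71.1, 62.2 and 45.6 in IDH2R140W and 74.0, 71.9 and 75.6 in IDH2R172K. The low Parental value is replicate 2 and the low IDH2R140W value is replicate 3, the libraries with the high ribosomal protein share. FOXM1 rose in IDH2R140Q (0.72 ± 0.182, adjusted p = 0.00589), by 0.47 without Parental replicate 2 (adjusted p = 0.016). Its rise in IDH1R132H (0.53 ± 0.182, adjusted p = 0.0308) was 0.27 without Parental replicate 2 (adjusted p = 0.132), was lost without any 1 of the 3 IDH1R132H libraries (adjusted p = 0.0568 to 0.0918) and did not pass after median-ratio scaling (0.33, adjusted p = 0.06). FOXM1 was thus 1 of 8 mitosis genes that rose in IDH2R140Q, where 9 fell, CDK1 and CCNB1 among them. Of all genes tested 33.3% rose and 11.1% fell in that line.

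The 3 genes grouped here as mitotic kinases, PLK1, AURKA and NEK2, all fell in IDH2R140W. Of the kinases placed in other groups, AURKB fell in that line, while CDK1, TTK and BUB1 did not pass. PLK1, the Polo-like kinase of spindle assembly and mitotic entry, stood at 209, 161 and 211 TPM in Parental and at 159, 153 and 128 in IDH2R140W (−0.40 ± 0.0986, adjusted p = 0.00941), all 3 below the lowest Parental library. In IDH1R132H PLK1 rose to 261, 243 and 244 (0.37 ± 0.0986, adjusted p = 0.00741), which was 0.25 without Parental replicate 2 (adjusted p = 0.0236). In IDH2R140Q, at 181, 171 and 174, PLK1 lay within the range of Parental, and in IDH2R172K, at 205, 201 and 191, it did too.

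AURKA, the Aurora kinase of centrosomes and spindle poles, had one of the widest ranges of the set. Its libraries read 119, 90.3 and 108 TPM in Parental, 169, 186 and 171 in IDH1R132H, 174, 165 and 164 in IDH2R140Q, 88.0, 87.5 and 68.5 in IDH2R140W and 117, 122 and 129 in IDH2R172K. IDH1R132H and IDH2R140Q overlapped each other and lay above all other libraries, and IDH2R140W lay below all others. AURKA rose in IDH1R132H (0.73 ± 0.106, adjusted p = 8.32e-05) and IDH2R140Q (0.67 ± 0.106, adjusted p = 2e-04) and fell in IDH2R140W (−0.38 ± 0.106, adjusted p = 0.0184). The fall was lost without Parental replicate 1 (−0.29, adjusted p = 0.0768), Parental replicate 3 (−0.36, 0.0582) or IDH2R140W replicate 3 (−0.26, 0.0617). Between lines AURKA was more than 2-fold higher in IDH1R132H than in IDH2R140W (1.11 ± 0.106, adjusted p = 2.15e-06) and in IDH2R140Q than in IDH2R140W (1.04 ± 0.106, adjusted p = 5.68e-06). NEK2, a kinase that separates centrosomes, stood at 26.5 ± 1.16 TPM in Parental and 26.7 ± 0.817 in IDH1R132H. It fell to 19.2 ± 2.20 in IDH2R140Q (−0.45 ± 0.106, adjusted p = 0.00371) and to 18.7 ± 1.39 in IDH2R140W (−0.48 ± 0.106, adjusted p = 0.00422).

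**Figure D2:**
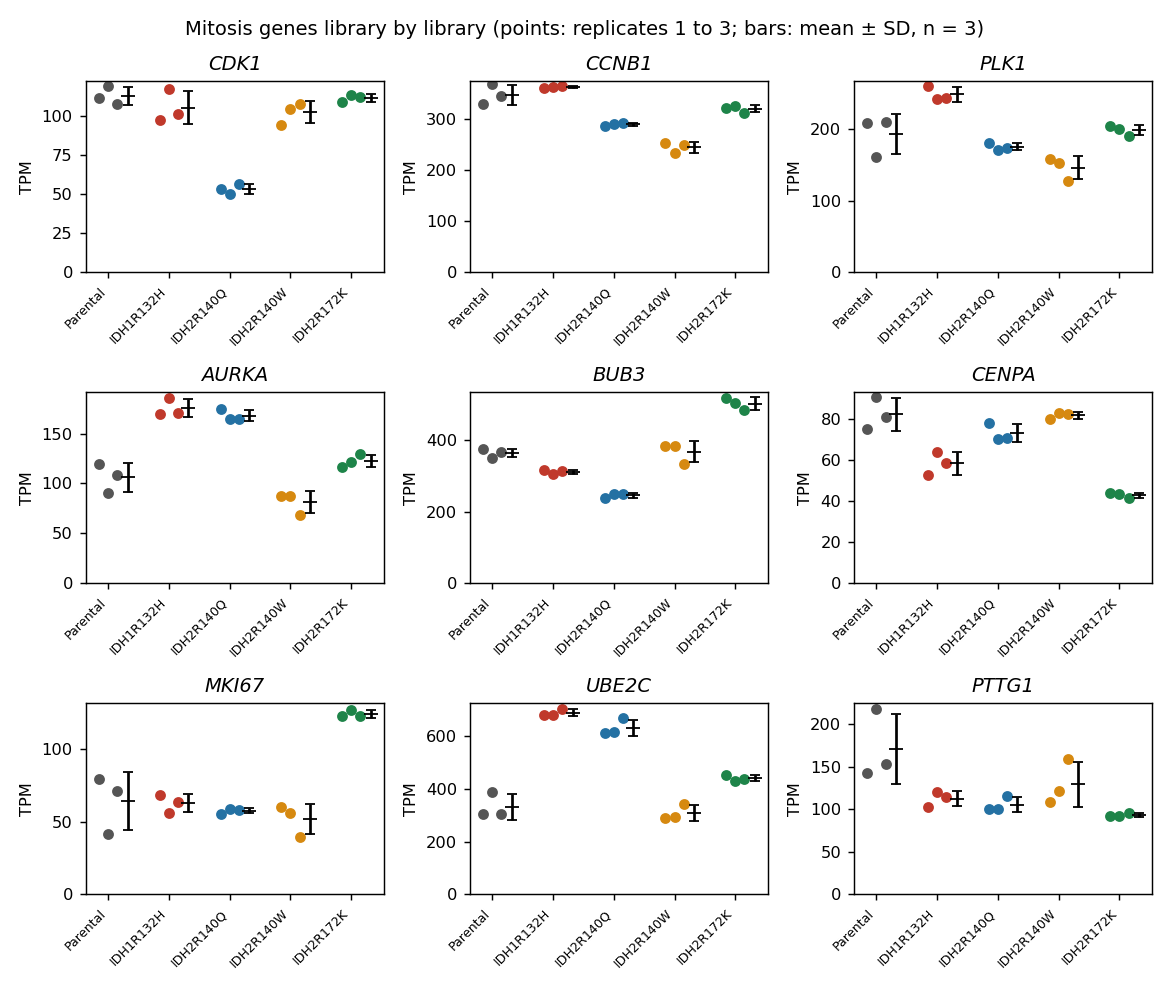
TPM of 9 mitosis genes in each library (points, replicates 1 to 3 from left to right within a group) with the mean ± SD of the 3 libraries of a group (black bars), on axes that start at 0. CDK1 is low in IDH2R140Q only, MKI67 is high in IDH2R172K only, and in PTTG1 and MKI67 the replicate 2 point of Parental stands apart from the other 2.

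The chromosomal passenger complex, which corrects wrong attachments of chromosomes to the spindle, is represented by its kinase AURKB and by BIRC5 and CDCA8 (survivin and borealin). AURKB stood at 155, 161 and 153 TPM in Parental, at 130.2, 135 and 127 in IDH2R140W and at 228, 194 and 186 in IDH2R172K, 3 ranges that did not overlap. It rose in IDH2R172K (0.37 ± 0.0741, adjusted p = 0.00139), though not after median-ratio scaling (0.21, adjusted p = 0.107), and fell in IDH2R140W (−0.26 ± 0.0741, adjusted p = 0.0214), though not without IDH2R140W replicate 1 (−0.25, adjusted p = 0.0576) or without Parental replicate 2 and IDH2R140W replicate 3 together (−0.21, 0.0732). In IDH1R132H and IDH2R140Q AURKB did not pass, at 151 ± 7.43 and 147 ± 6.56 TPM. CDCA8 fell in IDH2R140W, to 51.3, 52.1 and 45.8 from 62.7, 53.9 and 62.2 (−0.26 ± 0.0752, adjusted p = 0.0234), and the call was lost without Parental replicate 1 (−0.22, adjusted p = 0.0798), Parental replicate 3 (−0.22, 0.0858) or IDH2R140W replicate 3 (−0.20, 0.0732). BIRC5 fell in IDH2R140Q (−0.25 ± 0.0653, adjusted p = 0.00649) and IDH2R172K (−0.26 ± 0.0653, adjusted p = 0.00658). Its fall in IDH1R132H (−0.17 ± 0.0653, adjusted p = 0.0495) was lost when any 1 of 12 of the 15 libraries was left out, with an adjusted p of up to 0.181.

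Among the 5 spindle checkpoint genes BUB3 moved most and the others little. BUB3, which docks checkpoint proteins at kinetochores, stood at 375, 351 and 367 TPM in Parental, 317, 306 and 314 in IDH1R132H, 238, 251 and 249.5 in IDH2R140Q, 384, 385 and 334 in IDH2R140W and 519, 505 and 483 in IDH2R172K. IDH2R140W overlapped Parental, and the other 3 lines were separated from Parental and from each other. BUB3 fell in IDH1R132H (−0.22 ± 0.0593, adjusted p = 0.00795) and IDH2R140Q (−0.56 ± 0.0593, adjusted p = 4.99e-06) and rose in IDH2R172K (0.46 ± 0.0593, adjusted p = 3.1e-05). In IDH2R140Q it was more than 2-fold lower than in IDH2R172K (−1.03 ± 0.0593, adjusted p = 1.96e-08).
TTK, the kinase that starts checkpoint signalling (MPS1), stood at 48.1, 49.6 and 48.2 TPM in Parental and 55.6, 64.6 and 62.0 in IDH2R172K (0.31 ± 0.093, adjusted p = 0.0162). That rise was lost without IDH2R172K replicate 2 (0.27, adjusted p = 0.068) or 3 (0.30, 0.0523) and after median-ratio scaling (0.16, 0.179). The rise of TTK in IDH2R140Q (0.26 ± 0.093, adjusted p = 0.038) was lost without any 1 of the 3 Parental libraries, IDH2R140Q replicate 1 or IDH2R140Q replicate 3 (adjusted p = 0.0542 to 0.138), and turned to −0.003 after median-ratio scaling. BUB1 and BUB1B, kinase and kinase-like checkpoint proteins, and MAD2L1, which binds CDC20, did not pass against Parental in any line. BUB1B stood at 63.9, 38.6 and 65.1 in Parental and at 72.3, 71.3 and 74.2 in IDH2R140Q, and its lowest Parental value is replicate 2. MAD2L1 was highest in that library, at 131, 191 and 136 in Parental.

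At the centromere, CENPA and CENPE were lower where they passed and KIF2C differed between lines. CENPA, the histone H3 variant that marks centromeres, stood at 75.0, 90.6 and 81.1 TPM in Parental, 53.0, 64.0 and 58.5 in IDH1R132H, 78.1, 70.5 and 71.0 in IDH2R140Q, 79.9, 83.1 and 82.7 in IDH2R140W and 43.8, 43.5 and 41.6 in IDH2R172K. The IDH2R172K libraries lay below all others and those of IDH1R132H below Parental. CENPA fell in IDH2R172K (−0.92 ± 0.0838, adjusted p = 1.28e-06) and in IDH1R132H (−0.49 ± 0.0838, adjusted p = 0.000351), under every alternative run. IDH2R140W, the lowest line for most mitosis genes, was at the Parental level for this one, above IDH2R172K (0.92 ± 0.0838, adjusted p = 1.74e-06).

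CENPE, a kinesin that moves chromosomes to the spindle equator and a low gene here, stood at 13.0, 11.5 and 14.7 TPM in Parental and at 8.38, 7.65 and 5.09 in IDH2R140W (−0.82 ± 0.159, adjusted p = 0.00173). The other 3 lines lay between, at 9.63, 8.86 and 10.5 in IDH1R132H, 9.23, 8.59 and 11.0 in IDH2R140Q and 9.49, 10.9 and 11.1 in IDH2R172K, and did not pass on the deposited scale. After median-ratio scaling CENPE passed as lower in these 3 lines too (−0.58, −0.64 and −0.43 with adjusted p = 0.00249, 0.00126 and 0.0169). KIF2C, a kinesin that takes microtubules apart at kinetochores, stood at 201, 176 and 191 in Parental. KIF2C rose to 259.5, 260.2 and 253 in IDH1R132H (0.44 ± 0.0654, adjusted p = 9.22e-05) and 245, 230.4 and 235 in IDH2R140Q (0.32 ± 0.0654, adjusted p = 0.00137), the second not passing after median-ratio scaling (0.06, adjusted p = 0.372). KIF2C fell to 157, 156 and 138 in IDH2R140W (−0.33 ± 0.0654, adjusted p = 0.00198). CENPF, a large kinetochore protein of G2 and mitosis, passed as higher in IDH1R132H, IDH2R140Q and IDH2R172K (0.39, 0.35 and 0.31), and none of these 3 calls was kept after median-ratio scaling (adjusted p = 0.185, 0.561 and 0.283) or without Parental replicate 2 (0.0553, 0.0984 and 0.162). Single libraries of each line also ended them, which were IDH1R132H replicate 1 (0.0514), IDH2R140Q replicate 3 (0.0987) and IDH2R172K replicates 1 (0.142) and 3 (0.101), and IDH2R140Q replicate 2 ended that of IDH2R172K (0.0507).

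Among 9 kinesins and spindle proteins 4 rose and none fell in IDH2R172K, where 25.5% of all genes rose and 13.5% fell. The counts were 2 and 1 in IDH1R132H (all genes 30.1% and 13.7%), 1 and 1 in IDH2R140Q (33.3% and 11.1%) and 0 and 1 in IDH2R140W (13.3% and 10.7%). KIF20A, a kinesin of cytokinesis, stood at 50.1, 36.7 and 48.9 TPM in Parental, 65.8, 71.1 and 65.4 in IDH1R132H, 61.9, 53.6 and 56.4 in IDH2R140Q, 39.8, 49.2 and 33.2 in IDH2R140W and 63.6, 59.2 and 65.6 in IDH2R172K. The IDH1R132H, IDH2R140Q and IDH2R172K libraries all lay above those of Parental and IDH2R140W. KIF20A rose in IDH1R132H (0.58 ± 0.135, adjusted p = 0.00319) and IDH2R172K (0.48 ± 0.135, adjusted p = 0.0122), the second lost without Parental replicate 2 (0.34, adjusted p = 0.0512).

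KIF23, which bundles microtubules at the midbody of dividing cells, rose in IDH2R172K, from 58.5, 47.8 and 54.3 to 75.1, 76.0 and 71.8 TPM (0.47 ± 0.0849, adjusted p = 0.000581), and no other group reached the IDH2R172K range. NUSAP1, a spindle-associated protein, rose in IDH2R172K to 118, 118 and 117 from 91.2, 67.6 and 90.4 (0.51 ± 0.119, adjusted p = 0.00363). In IDH2R140Q NUSAP1 passed at 0.40, and that call was lost without Parental replicate 2 (0.26, adjusted p = 0.0587), after median-ratio scaling (0.14, 0.176) and without IDH2R140Q replicate 1 (0.35, 0.0585). KIF4A, a chromosome-binding kinesin, rose in IDH1R132H (0.46 ± 0.119, adjusted p = 0.0061) and in IDH2R172K (0.40 ± 0.119, adjusted p = 0.0163), the second lost without Parental replicate 2 (0.29, adjusted p = 0.0671) or IDH2R172K replicate 2 (0.37, 0.0562) or 3 (0.37, 0.0574). Its near-identical copy KIF4B stood at or under 0.40 TPM in every library.

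Of the remaining spindle genes 3 passed as lower in 1 line each. HMMR, a spindle assembly factor, fell in IDH1R132H, from 74.1, 64.4 and 74.3 to 52.1, 55.4 and 56.1 TPM (−0.37 ± 0.0816, adjusted p = 0.00218). KIF18A, a kinesin that damps chromosome movements, fell in IDH2R140W (−0.40 ± 0.115, adjusted p = 0.0224), and the fall was lost without Parental replicate 1 (adjusted p = 0.0722) or 3 (0.0667) or IDH2R140W replicate 2 (0.0654) or 3 (0.0582). KIF11, the kinesin that pushes spindle poles apart, fell in IDH2R140Q (−0.27 ± 0.102, adjusted p = 0.0479), a call that was lost when any 1 of 11 of the 15 libraries was left out, with an adjusted p of up to 0.139. KIF14 and PRC1, both needed for cytokinesis, did not pass against Parental in any line. KIF14 stood at 13.4, 9.46 and 12.7 in Parental, 14.4, 14.9 and 14.2 in IDH1R132H, 15.6, 14.0 and 17.0 in IDH2R140Q, 11.6, 11.0 and 6.40 in IDH2R140W and 15.6, 15.9 and 15.6 in IDH2R172K. Its lowest values were Parental replicate 2 and IDH2R140W replicate 3.

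The 2 genes of chromosome structure were highest in IDH2R172K. MKI67, which encodes the Ki-67 antigen that coats mitotic chromosomes and is used to count cycling cells, stood at 122, 127 and 123 TPM in IDH2R172K and at 79.5, 41.7 and 70.7 in Parental (0.99 ± 0.193, adjusted p = 0.001). Parental replicate 2 stood 0.83 below the mean of the other 2 Parental libraries on the log2(TPM + 1) scale, which makes this rise larger. The other lines read 68.5, 56.2 and 63.3 in IDH1R132H, 55.3, 58.8 and 58.3 in IDH2R140Q and 59.7, 55.7 and 39.8 in IDH2R140W, all under the IDH2R172K libraries. MKI67 was more than 2-fold higher in IDH2R172K than in IDH2R140Q (IDH2R140Q minus IDH2R172K, −1.10 ± 0.193, adjusted p = 0.000574) or IDH2R140W (IDH2R140W minus IDH2R172K, −1.26 ± 0.193, adjusted p = 0.000192), under every alternative run. In IDH1R132H the MKI67 difference was 0.02 and did not pass, and it turned to −0.26 and passed (adjusted p = 0.0153) without Parental replicate 2 and IDH2R140W replicate 3. TOP2A, the topoisomerase that untangles sister chromatids, stood at 145, 169.9 and 137 in Parental, 139, 147 and 147 in IDH1R132H, 139, 141 and 158 in IDH2R140Q and 122, 113 and 141 in IDH2R140W. TOP2A rose in IDH2R172K to 193, 198 and 199 (0.39 ± 0.0908, adjusted p = 0.00386), though not after median-ratio scaling (0.23, adjusted p = 0.195).

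The anaphase and exit group held the largest rise against Parental and a fall in 3 lines. UBE2C, the ubiquitin-conjugating enzyme of the anaphase-promoting complex, stood at 303, 387 and 303 TPM in Parental, 679.6, 678 and 702 in IDH1R132H, 609.8, 616 and 665 in IDH2R140Q, 291, 292 and 341 in IDH2R140W and 451, 429 and 437 in IDH2R172K. Only IDH2R140W overlapped Parental. UBE2C rose in IDH1R132H (1.06 ± 0.088, adjusted p = 4.11e-07), IDH2R140Q (0.94 ± 0.088, adjusted p = 1.72e-06) and IDH2R172K (0.42 ± 0.088, adjusted p = 0.00193), the last not after median-ratio scaling (0.26, adjusted p = 0.162). PTTG1, securin, the inhibitor of separase, stood at 142, 218 and 153 in Parental, 103, 119.8 and 115 in IDH1R132H, 100.1, 99.9 and 116 in IDH2R140Q, 109, 121 and 159 in IDH2R140W and 91.6, 92.4 and 95.8 in IDH2R172K. The high values within Parental and within IDH2R140W are again replicate 2 and replicate 3. In Parental replicate 2 PTTG1 stood 0.56 above the mean of the other 2 libraries on the log2(TPM + 1) scale, which makes its falls against Parental larger. PTTG1 fell in IDH1R132H (−0.58 ± 0.151, adjusted p = 0.00701), IDH2R140Q (−0.67 ± 0.151, adjusted p = 0.00274) and IDH2R172K (−0.84 ± 0.151, adjusted p = 0.00057) under every alternative run, and its IDH2R140W difference did not pass (−0.39 ± 0.151, adjusted p = 0.0782). Its copies PTTG2 and PTTG3P stood at or under 0.55 TPM in every library.

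CDC20, the activator of the anaphase-promoting complex and the most abundant of the 37 genes, stood at 849, 839 and 867 TPM in Parental. CDC20 fell in IDH2R140Q, to 742, 744 and 752 (−0.19 ± 0.0377, adjusted p = 0.00109), and in IDH2R140W, to 748, 765 and 771 (−0.16 ± 0.0377, adjusted p = 0.00605), the second not passing after quantile normalisation (−0.11, adjusted p = 0.0946). The libraries of both lines lay below every Parental library. ESPL1, separase, the protease that opens cohesin, fell in IDH2R140W, from 29.7, 20.5 and 29.9 to 17.9, 19.8 and 15.1 (−0.56 ± 0.131, adjusted p = 0.00605). In IDH2R140Q ESPL1 fell to 20.5, 18.9 and 20.1 (−0.39 ± 0.131, adjusted p = 0.0258), a call lost without Parental replicate 1 (−0.31, adjusted p = 0.0935) or 3 (−0.30, 0.104) or IDH2R140Q replicate 2 (−0.36, 0.0779) or 3 (−0.40, 0.056).

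In the mean of the 4 edited lines 9 of the 37 genes fell against Parental and 8 rose, where 12.7% of all genes fell and 30.2% rose. PTTG1 (−0.62 ± 0.12, adjusted p = 0.000918), CENPE (−0.48 ± 0.126, adjusted p = 0.00773), CENPA (−0.39 ± 0.0662, adjusted p = 0.000322) and CDK1 (−0.33 ± 0.0634, adjusted p = 0.000873) had the largest falls, and that of CENPE was lost without Parental replicate 3 (−0.39, adjusted p = 0.0542). UBE2C (0.58 ± 0.0696, adjusted p = 1.69e-05) and FOXM1 (0.47 ± 0.144, adjusted p = 0.0181) had the largest rises. Parental replicate 2 decided much of this count: without it 1 gene rose, and FOXM1 (adjusted p = 0.17), AURKA (0.0802), CENPF (0.324), KIF2C (0.207), KIF4A (0.245), KIF20A (0.232) and NUSAP1 (0.228) did not pass. ESPL1 passed at −0.27 ± 0.104, adjusted p = 0.0496, was lost without any 1 of 13 of the 15 libraries (adjusted p of up to 0.254) and stood at −0.44 without Parental replicate 2. After median-ratio scaling 3 rose and 18 fell, where 20.8% and 21.2% of all genes did.

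Among the edited lines, which shared their medium, the widest contrast was between IDH2R140W and IDH2R172K. In IDH2R140W 23 of the 37 genes (62.2%) were lower than in IDH2R172K and 2 were higher, where 19.2% of all genes were lower and 12.0% higher. The 23 held the 3 genes grouped as mitotic kinases, PLK1, AURKA (−0.59) and NEK2, and 3 of 4 measured genes of anaphase and exit. They also held 7 of 9 kinesins and spindle proteins (−0.65 ± 0.0849, adjusted p = 4.65e-05 for KIF23 and −0.63 ± 0.135, adjusted p = 0.00266 for KIF20A). Both chromosome structure genes were among them (−0.65 ± 0.0908, adjusted p = 8.93e-05 for TOP2A). The 2 higher genes were CENPA and PTTG1. Of these 25 differences 22 passed under all 3 scalings, 20 lower and 2 higher, where 14.0% of all genes were lower and 11.6% higher by that rule, and 18 under all 27 alternatives, and without Parental replicate 2 and IDH2R140W replicate 3 there were 2 higher and 25 lower, where 16.2% and 21.2% of all genes were. CDCA8 was lost without any 1 of 12 of the 15 libraries. CENPE and KIF4A were each lost without any 1 of 3 libraries, IDH2R140W replicate 3 (−0.35, adjusted p = 0.0805, and −0.26, 0.0965) and IDH2R172K replicates 2 (0.0592 and 0.0753) and 3 (0.0653 and 0.0766). PTTG1 was lost without any 1 of 5 libraries, IDH2R140W replicates 2 (0.49, adjusted p = 0.0525) and 3 (0.29, 0.154) and each of the 3 IDH2R172K libraries (0.0702 to 0.0881). KIF14 (−0.68) stood at −0.44 without IDH2R140W replicate 3.

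IDH2R140W was also lower than the other 2 lines for most genes that passed. In IDH1R132H 17 genes were higher than in IDH2R140W and 2 lower (background 23.7% and 11.9%), led by UBE2C (1.16 ± 0.088, adjusted p = 2.11e-07), AURKA, KIF2C (0.78 ± 0.0654, adjusted p = 6e-07), PLK1 (0.77 ± 0.0986, adjusted p = 3.57e-05) and KIF20A (0.73 ± 0.135, adjusted p = 0.000762). In IDH2R140Q, edited at the same residue as IDH2R140W, 17 were higher and 2 lower (background 25.0% and 7.91%), the 2 being CDK1 (−0.93 ± 0.0802, adjusted p = 1.21e-06) and BUB3 (−0.57 ± 0.0593, adjusted p = 6.75e-06). That contrast depended on scaling more than the others, since 5 of the higher and 2 of the lower calls passed under all 3 scalings, beside 12.7% and 7.29% of all genes. Those kept were AURKA, UBE2C, KIF2C, KIF14, KIF20A, CDK1 and BUB3. Of these, KIF20A (0.50) was lost without IDH2R140Q replicate 1 (0.44, adjusted p = 0.052) or IDH2R140W replicate 3 (0.36, 0.0543), and KIF14 (0.67) stood at 0.42 without IDH2R140W replicate 3.

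The 3 other pairs gave 10, 16 and 14 calls on the deposited scale, of which 7, 15 and 14 passed under all 3 other scalings. IDH1R132H against IDH2R140Q gave 6 higher and 4 lower (background 12.1% and 16.4%), with CDK1, PLK1, NEK2, CCNB1, BUB3 and CDC20 higher in IDH1R132H. Its 10 calls became 18 with only those 2 groups fitted, 22 with library weights and 21 without Parental replicate 2 and IDH2R140W replicate 3. The shares of all genes called in those fits are not given here, so these counts describe the fits and not the mitosis genes in particular. IDH1R132H against IDH2R172K gave 7 higher and 9 lower (18.3% and 14.2%), with UBE2C (0.64) and AURKA (0.51) at the top and MKI67 (−0.98) and BUB3 (−0.68) at the bottom. IDH2R140Q against IDH2R172K gave 4 higher and 10 lower (19.7% and 11.4%), with CENPA (0.75) the highest and MKI67 (−1.10), CDK1 (−1.06) and BUB3 (−1.03) the lowest, the last 3 all on chromosome 10.

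Several of the genes lie on chromosomes 2, 10 and 20, where the other coding genes also differed between the lines. Coordinates are those of GENCODE release 29 (hg38), and the check was chosen after the values were seen, as a description with no test. CDC25B, UBE2C and AURKA lie on chromosome 20, whose 321 coding genes tested had a median 0.34 above all others in IDH1R132H, 0.51 in IDH2R140Q and 0.23 in IDH2R172K and 0.10 below them in IDH2R140W. CDK1, KIF11, BUB3 and MKI67 lie on chromosome 10, whose 412 coding genes stood 0.42 below all others in IDH2R140Q and at 0.04, −0.04 and 0.05 from them in IDH1R132H, IDH2R140W and IDH2R172K. CENPA and BUB1 lie on chromosome 2, whose 768 coding genes stood 0.20 above all others in IDH2R140Q. The genes of chromosome 2 stood at −0.05, −0.02 and −0.10 from all others in IDH1R132H, IDH2R140W and IDH2R172K. In IDH2R140Q against IDH2R172K, where CENPA was the highest mitosis gene, those of chromosome 2 stood 0.30 above all others.

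For several of these 7 genes the neighbours within 5 Mb moved about as far as the gene. The 67 neighbours of UBE2C (chr20:45812576-45816957) had a median of 0.96 in IDH2R140Q, where UBE2C was 0.94, and of 0.54 in IDH2R172K, where it was 0.42. In IDH1R132H the neighbours of UBE2C stood at 0.64 and UBE2C at 1.06. The 23 neighbours of AURKA (chr20:56369389-56392337) stood at 0.56 in IDH1R132H and 0.89 in IDH2R140Q, against 0.73 and 0.67 for AURKA. The 60 neighbours of CDC25B (chr20:3786772-3806121) stood at 0.70 in IDH1R132H, above the 0.58 of CDC25B. On chromosome 10 the 37 neighbours of BUB3 (chr10:123154277-123170467) stood at −0.29 in IDH2R140Q and 0.41 in IDH2R172K, against −0.56 and 0.46 for BUB3. The part that neighbouring DNA has in these differences was not tested.

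CDK1, MKI67 and PTTG1 differed from their surroundings, though the values of MKI67 and PTTG1 include Parental replicate 2, which makes them larger. The 13 neighbours of CDK1 (chr10:60778331-60794852) had a median of −0.12 in IDH2R140Q, where CDK1 was −1.07. The 18 neighbours of MKI67 (chr10:128096659-128126385) stood at 0.29 in IDH2R172K, where MKI67 was 0.99. The 17 neighbours of PTTG1 (chr5:160421822-160428744) stood at −0.02, 0.33 and 0.11 in IDH1R132H, IDH2R140Q and IDH2R172K, where PTTG1 was −0.58, −0.67 and −0.84. CENPA (chr2:26764289-26801067) went the same way as its 63 neighbours. It stood near their median in IDH1R132H, −0.49 beside −0.32, and further below it in IDH2R172K, −0.92 beside −0.34. Both neighbour medians lay below the median of all coding genes (0.19 and 0.14).

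Leaving out the 7 genes of chromosomes 10 and 20, a choice made after the data were seen, left 30. CENPA and BUB1, on chromosome 2, were kept. Of the 30 genes 11 fell in IDH2R140W and none rose, where 10.7% of all genes tested fell and 13.3% rose. So 11 of the 12 falls in that line lay outside chromosomes 10 and 20. In IDH1R132H 6 of the 30 rose and 5 fell (all genes 30.1% and 13.7%). The counts were 6 and 6 in IDH2R140Q (33.3% and 11.1%) and 8 and 3 in IDH2R172K (25.5% and 13.5%).

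**Figure D3:**
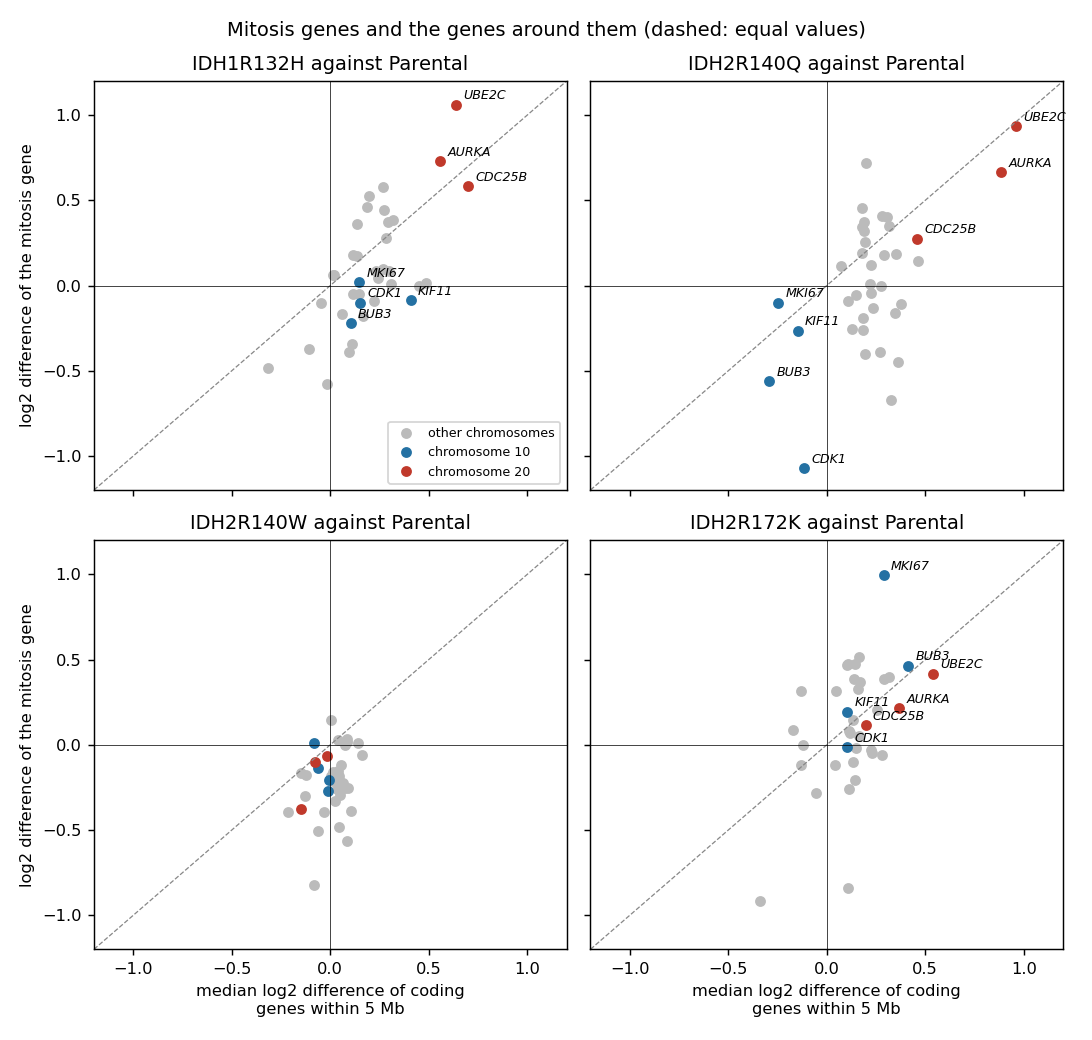
Difference in log2(TPM + 1) of each mitosis gene (vertical axis) against the median difference of protein-coding genes within 5 Mb of it (horizontal axis) in each edited line, with genes of chromosomes 10 and 20 in colour and named except in the IDH2R140W panel. UBE2C and AURKA lie to the right in IDH1R132H, IDH2R140Q and IDH2R172K, whereas CDK1 in IDH2R140Q and MKI67 in IDH2R172K lie far from the dashed line of equal values.

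The 2 libraries with a high ribosomal protein share also read long genes low. Of 11313 tested coding genes, those with the longest transcripts (from 5142 bases) stood, relative to the other libraries of the group and to those with the shortest (up to 2163 bases), at −0.51 in Parental replicate 2 and −0.52 in IDH2R140W replicate 3. In IDH1R132H, IDH2R140Q and IDH2R172K the same value lay between −0.04 and 0.02. Across the 37 mitosis genes, which share these libraries, the deviation of a gene and the length of its longest coding transcript had a Spearman correlation of −0.53 in Parental replicate 2 and −0.45 in IDH2R140W replicate 3, given as a description. In Parental replicate 2 MKI67 (12678 bases) stood 0.83 below the mean of the other 2 libraries and PTTG1 (1070 bases) 0.56 above it. TOP2A (5758 bases) and MAD2L1 (5468 bases), at 0.27 and 0.51 above, went the other way. What made these libraries differ was not tested, and since 1 stands in Parental and 1 in IDH2R140W, the comparison of those 2 groups holds 1 on each side.

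**Figure D4:**
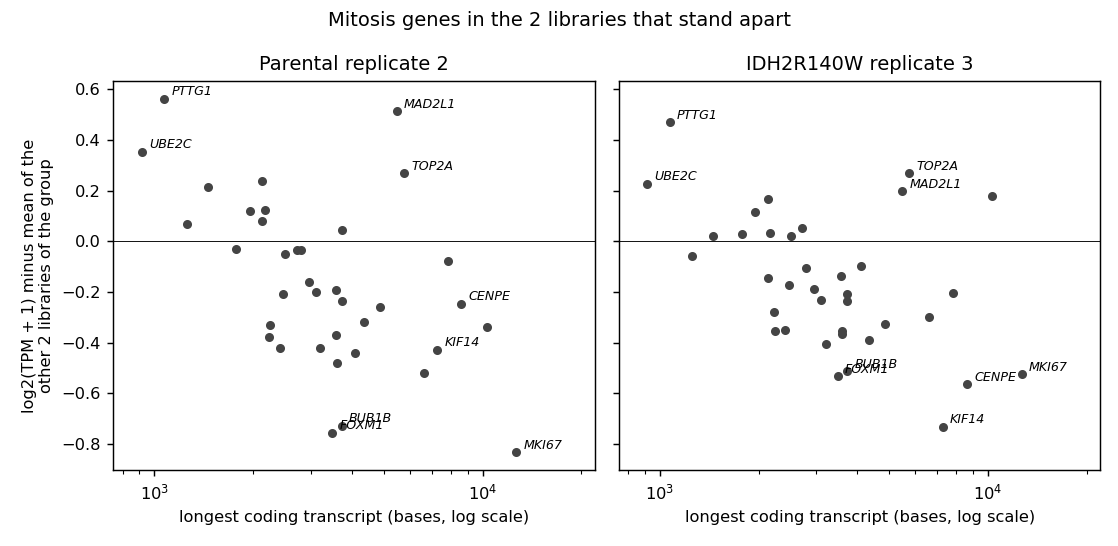
Deviation of each mitosis gene in log2(TPM + 1) from the mean of the other 2 libraries of its group (vertical axis) against the length of its longest coding transcript (horizontal axis, log scale) in Parental replicate 2 and IDH2R140W replicate 3. Most long genes lie below 0 in both panels, with TOP2A and MAD2L1 above it in both and CENPF (10307 bases) above it in IDH2R140W replicate 3.

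Falls in IDH2R140W stood in genes with and without TTTGAA. Of the 31 measured genes with a promoter in the table, 6 of 21 with TTTGAA fell and 5 of 10 without it fell. None rose, and 10.7% of all genes tested fell and 13.3% rose in that line. In IDH2R172K 6 of the 21 rose and 1 fell, and 2 of the 10 rose and 1 fell (all genes 25.5% and 13.5%). In IDH1R132H 3 of the 21 rose and 3 fell, and 3 of the 10 rose and 1 fell (30.1% and 13.7%). In IDH2R140Q 3 of the 21 rose and 4 fell, and 1 of the 10 rose and 3 fell (33.3% and 11.1%).

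Other genes of the cell cycle were described from lists of 8 kinds. Their counts are to be read beside the shares of all genes that rose and fell, which were 30.1% and 13.7% in IDH1R132H, 33.3% and 11.1% in IDH2R140Q, 13.3% and 10.7% in IDH2R140W and 25.5% and 13.5% in IDH2R172K. Of 19 other kinetochore genes tested, 3 rose and 3 fell in IDH1R132H, 7 and 1 in IDH2R140Q, 1 and 0 in IDH2R140W and 4 and 0 in IDH2R172K. Of those rises 0, 1, 1 and 2 passed under all 3 other scalings. DSN1, of the MIS12 complex, rose most in IDH2R140Q (1.36 ± 0.0963, adjusted p = 1.06e-07). Of 16 other spindle and cytokinesis genes, 2 rose and 1 fell in IDH1R132H, 4 and 2 in IDH2R140Q, 0 and 5 in IDH2R140W and 3 and 2 in IDH2R172K. Of those rises 1, 1, 0 and 1 passed under all 3 other scalings, and all of the falls did. TPX2, which binds and activates AURKA at the spindle, fell in all 4 lines, from 394 ± 42.5 TPM in Parental to 178 ± 2.97 in IDH1R132H (−1.13 ± 0.082, adjusted p = 1.03e-07), 206 ± 9.74 in IDH2R140Q (−0.92 ± 0.082, adjusted p = 9.82e-07), 278 ± 27.3 in IDH2R140W (−0.50 ± 0.082, adjusted p = 0.000501) and 211 ± 2.94 in IDH2R172K (−0.89 ± 0.082, adjusted p = 1.43e-06). AURKA and its activator thus went opposite ways in IDH1R132H and IDH2R140Q and the same way in IDH2R140W. DLGAP5 (−0.52 ± 0.0844, adjusted p = 0.000476) and ECT2 (−0.47 ± 0.103, adjusted p = 0.00428), of spindle assembly and cytokinesis, fell with TPX2 in IDH2R140W, and ECT2 rose in IDH1R132H (0.44 ± 0.103, adjusted p = 0.00353).

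The complexes that shape, hold and part chromosomes were described in 3 lists. Of 17 genes of the anaphase-promoting complex and its partners, 3 rose and 3 fell in IDH1R132H, 2 and 2 in IDH2R140Q, 0 and 2 in IDH2R140W and 4 and 0 in IDH2R172K. Under all 3 other scalings 1, 0, 0 and 1 of those rises and 3, 2, 1 and 0 of the falls passed. CDC16, a core subunit of the complex that UBE2C and CDC20 serve, fell in IDH2R140W (−1.13 ± 0.0755, adjusted p = 1.31e-07). Of 8 condensin genes 1, 2, 1 and 2 rose in IDH1R132H, IDH2R140Q, IDH2R140W and IDH2R172K and none fell, and 1, 0, 0 and 1 of those rises passed under all 3 other scalings. NCAPH2, of condensin II, was 1.12 higher in IDH2R172K (adjusted p = 1.21e-08). Of 9 cohesin genes 2, 4, 0 and 4 rose in the same order and 1 fell, in IDH2R140Q, and 0, 1, 0 and 2 of those rises passed under all 3 other scalings. Shugoshin, under its older symbol SGOL1, rose in IDH2R140Q (0.77 ± 0.0995, adjusted p = 3.3e-05), IDH1R132H (0.30 ± 0.0995, adjusted p = 0.0247) and IDH2R172K (0.31 ± 0.0995, adjusted p = 0.0231), and the rises in the latter pair did not pass under all 3 other scalings.

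Genes that act before mitosis were described in 3 lists. Of 10 DREAM and MuvB genes 6 rose and 1 fell in IDH1R132H, 7 and 0 in IDH2R140Q, 1 and 2 in IDH2R140W and 6 and 0 in IDH2R172K. Under all 3 other scalings 1, 3, 1 and 4 of those rises passed. MYBL2, the MuvB partner that activates mitotic genes, stood at 114 ± 9.81 TPM in Parental and rose in IDH1R132H to 159 ± 4.45 (0.48 ± 0.0694, adjusted p = 8.33e-05), in IDH2R140Q to 234 ± 5.71 (1.03 ± 0.0694, adjusted p = 6.46e-08) and in IDH2R172K to 162 ± 0.914 (0.50 ± 0.0694, adjusted p = 5.99e-05). MYBL2 fell in IDH2R140W to 90.8 ± 6.71 (−0.33 ± 0.0694, adjusted p = 0.00335). Of 25 DNA replication genes 10 rose and 4 fell in IDH1R132H, 16 and 0 in IDH2R140Q, 7 and 3 in IDH2R140W and 9 and 2 in IDH2R172K. Under all 3 other scalings 6, 8, 7 and 6 of those rises passed. E2F1, the transcription factor of S phase entry, rose in all 4 lines, IDH1R132H (1.15 ± 0.0858, adjusted p = 1.42e-07), IDH2R140Q (1.39 ± 0.0858, adjusted p = 2.73e-08), IDH2R140W (0.49 ± 0.0858, adjusted p = 0.000824) and IDH2R172K (0.83 ± 0.0858, adjusted p = 4.3e-06). MCM6, of the replicative helicase, fell in IDH2R140W (−0.69 ± 0.065, adjusted p = 3.71e-06) and rose in IDH2R140Q (0.47 ± 0.065, adjusted p = 6.63e-05). Of 12 G1 cyclins and CDK inhibitors 4 rose and 1 fell in IDH1R132H, 8 and 0 in IDH2R140Q, 2 and 1 in IDH2R140W and 7 and 2 in IDH2R172K. Under all 3 other scalings 3, 5, 1 and 5 of those rises passed. CDKN2C, the CDK inhibitor p18, rose in all 4 lines, IDH1R132H (0.74 ± 0.0593, adjusted p = 2.9e-07), IDH2R140Q (0.96 ± 0.0593, adjusted p = 2.67e-08), IDH2R140W (0.72 ± 0.0593, adjusted p = 1.1e-06) and IDH2R172K (0.53 ± 0.0593, adjusted p = 8.58e-06).

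Relative to all genes tested, the DREAM and MuvB list had medians of 0.30, 0.22, −0.02 and 0.29 in IDH1R132H, IDH2R140Q, IDH2R140W and IDH2R172K and the DNA replication list 0.03, 0.18, −0.06 and 0.08, beside −0.12, −0.22, −0.24 and −0.02 for the 37 mitosis genes. The difference between lists was not tested. The comparison with chromosomes and neighbours was made for the mitosis genes alone. Whether genes named from the other lists, MYBL2, E2F1, DSN1 and TPX2 among them, moved with the genes around them was not tested. Their differences carry the same limit as those of UBE2C and AURKA and are not to be read as cell cycle control in particular.

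**Figure D5:**
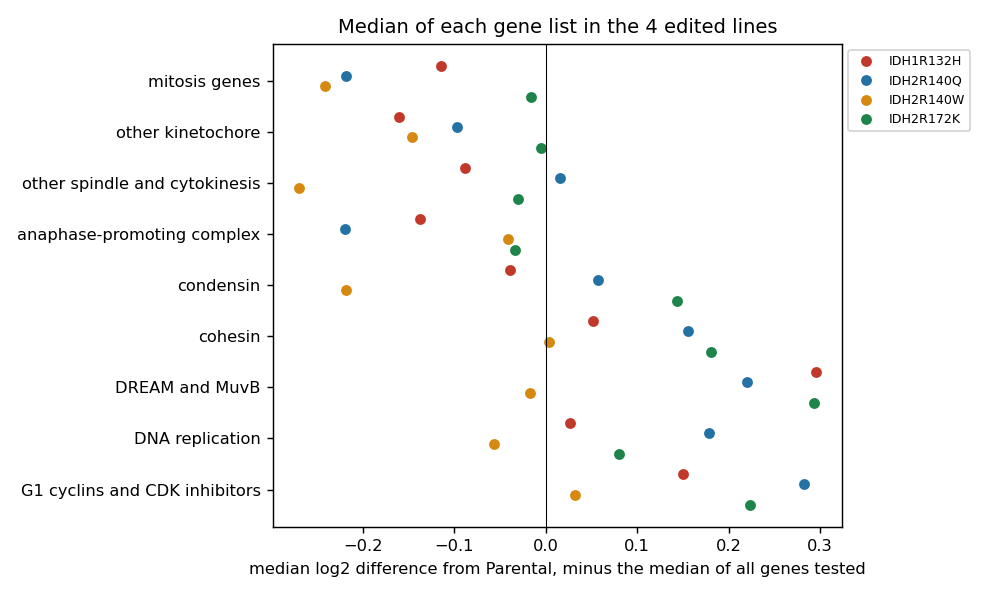
Median difference in log2(TPM + 1) from Parental of each gene list, minus the median of all genes tested (horizontal axis), in the 4 edited lines (colours). The mitosis genes lie left of 0 in the 4 lines, and the DREAM and MuvB list and the G1 list lie right of 0 in IDH1R132H, IDH2R140Q and IDH2R172K.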

How the data were processed

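Poly(A) RNA of 15 libraries, 3 in each of 5 groups, was sequenced with a directional kit, per the labels' protocols. The authors deposited 1 table of TPM per gene symbol and library. STAR 2.7.3, HTSeq, RSEM, DESeq2 and the build hg38 are named without roles, per the submitters' processing notes. No annotation, filter or strand setting is given in the sources used here. TPM holds no depth, so the depth of a library and its counting error are unknown. Columns summed to between 999999.34 and 1000001.

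Values of rows sharing a symbol were summed and 6 rows named by dates were left out. A gene was tested where 3 or more libraries reached 1 TPM, which left 14881 genes, analysed as log2(TPM + 1), a scale that understates changes of low genes, in 1 limma 3.58.1 fit (R 4.3.3) of all 15 libraries with an intensity trend. Its moderated test was two-sided, with Benjamini-Hochberg adjustment over all genes at 0.05, and was tested on simulated data. Other scalings, pseudocounts, filters, weights, a replicate block and omitted libraries made 27 alternatives, and leaving out members on chromosomes 10 and 20 was added after the data were seen. Values by library are given for at least the 2 members of each role with the widest range of group means and for members past 2-fold. Of other lists up to 3 passing genes with the smallest adjusted p could be named. Members, lists and rules were chosen with earlier results of these data known. Replicate numbers came from the labels, and whether they pair libraries was checked by the correlation of deviations from group means.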

Additional observations from a re-analysis of the deposited data

Results flagged for a closer look

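Of the mitosis genes 5 rose in 1 edited line and fell in another against the same Parental libraries. The difference between such a pair of lines is the sum of 2 differences that had each passed. A pair is listed only where that sum passed too, so its passing adds no support. The falls of PLK1, AURKA, AURKB and KIF2C in IDH2R140W did not pass when only the compared groups were fitted. After median-ratio scaling the rises of AURKB in IDH2R172K and KIF2C in IDH2R140Q did not pass. PLK1 was 0.77 higher in IDH1R132H than in IDH2R140W on the log2(TPM + 1) scale. AURKA was 1.11 higher in IDH1R132H and 1.04 higher in IDH2R140Q than in IDH2R140W. KIF2C was 0.78 higher in IDH1R132H and 0.65 higher in IDH2R140Q than in IDH2R140W. For AURKB the difference of IDH2R140W minus IDH2R172K was −0.62. For BUB3 the differences from IDH2R172K were −0.68 in IDH1R132H and −1.03 in IDH2R140Q.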

How the results depend on the processing

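Over 11 comparisons the 37 genes gave 407 differences, of which 178 passed, 137 also under the 3 other scalings and 103 under all 27 alternatives. Counts in this section are of the mitosis genes alone. The share of all genes called can move with the setting too, so the counts describe the settings and no change particular to these genes. Under median-ratio scaling the falls numbered 12 in IDH1R132H, 16 in IDH2R140Q, 8 in IDH2R172K and 18 in the mean of the lines, the rises 3, 6 and 3 in the last 3, and the calls between IDH2R140Q and IDH2R140W 12. BUB1 in IDH1R132H turned to −0.19, TTK in IDH2R140Q to −0.003, and in the mean CCNA2 turned to −0.16, BUB1 to −0.16 and KIF2C to −0.022. Under quantile normalisation the falls were 10, 14 and 7 in IDH1R132H, IDH2R140Q and IDH2R172K, and the rises 5 in IDH2R140Q and 3 in the mean. Without ribosomal protein, globin and mitochondrial genes 5 fell in IDH2R172K and 5 rose in the mean. With only the compared groups, and so fewer libraries, 4 rose in IDH2R140Q, 2 fell in IDH2R140W and 18 differed between IDH1R132H and IDH2R140Q. Library weights, whose estimation stopped before its tolerance was reached, gave 15 falls in IDH2R140Q, 22 in IDH2R140W, 7 in IDH2R172K and 15 in the mean, and 22 calls between IDH1R132H and IDH2R140Q. Without Parental replicate 2 and IDH2R140W replicate 3, 5 fell in IDH2R172K, 21 differed between IDH1R132H and IDH2R140Q, and MKI67 in IDH1R132H turned to −0.26. Leaving out members on chromosomes 10 and 20, added after the data were seen, left 10 calls between IDH1R132H and IDH2R172K and 8 between IDH2R140Q and IDH2R172K, by its construction from fewer genes. Leaving out 1 library at a time gave 5 to 12 rises in IDH2R140Q, 10 to 17 falls in IDH2R140W, 3 to 5 falls in IDH2R172K and 1 to 11 rises in the mean. For the other changes the cause was not tested.

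With a replicate block the rises and falls were 9 and 5 in IDH1R132H, 7 and 8 in IDH2R140Q, 0 and 12 in IDH2R140W, 12 and 3 in IDH2R172K and 7 and 8 in the mean. Deviations of the 30 pairs of libraries with the same number correlated at −0.285 to 0.223 (median −0.002), and those of the 60 other pairs at −0.37 to 0.499 (median 0.005), so the numbers were not taken to pair the libraries. TPM holds no depth, and 3 libraries a group limit the precision of every value.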
